A study of Mus musculus with 28 samples.

Results

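The regions described here are stretches of autosomal chromatin in mouse embryonic fibroblasts (MEFs) that carried the state U2 in glucose-starved cells lacking SIRT7 and the state U1 in the other 3 conditions of the study. Members were chosen by the deposited state calls themselves: maximal runs of 200 bp bins on chromosomes 1 to 19, at least 1 kb long, that were U2 in KO-GS and U1 in KO-NT, WT-GS and WT-NT. The rule gave 4139 runs, named KO-GS-only runs below, with a summed length of 12.1 Mb, or 0.488% of the 2472 Mb of segmented autosomal sequence. They made up 2.77% of all autosomal U2 in KO-GS.

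The segmentations were built from ChIP-seq of H3K27me3 and of mH2A1, the label's name for the macroH2A1.1 precipitation. KO-GS and KO-NT are SirT7-/- MEFs, and WT-GS and WT-NT are wild-type MEFs, all of strain 129s2, taken at 14.5 days and used at passages 3 to 4. GS and NT are the treatment names, which the labels do not expand, although the title of the series concerns glucose starvation. How many embryos or separate cultures stand behind a group is not stated. Each segmentation pooled 2 replicates per ChIP target, so every genotype and treatment has 1 segmentation, the values below carry no replicate error, and no difference between conditions could be tested. SIRT7 itself was precipitated from WT cells in both treatments, and those peak lists were not used to choose the runs. Depth in reads is unknown.

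H3K27me3 is the histone mark written by Polycomb repressive complex 2 and is known from silenced developmental genes, on which it often spreads over broad domains. MacroH2A1.1 is a splice form of a histone H2A variant whose large macro domain can bind ADP-ribose, a product of NAD-consuming enzymes, and macroH2A1 is enriched in repressed chromatin. SIRT7 belongs to the sirtuins, enzymes that remove acyl groups from proteins and consume NAD, and is found mainly in the nucleus and nucleolus. The sources used here do not say what each of the states U1 to U4 stands for, and the state names are kept. U1 covered most of the autosomes, 72.3% in KO-GS, 73.5% in KO-NT, 69.0% in WT-GS and 69.4% in WT-NT, and it also holds sequence to which no reads can map. U2 covered 17.6, 17.2, 20.9 and 20.8% in the same order of conditions.

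Bins that were U2 in a single segmentation were found in all 4 conditions, and KO-GS was not the condition with most of them. Of the bins that were U1 in KO-NT, WT-GS and WT-NT, 0.816% were U2 in KO-GS. The same share was 0.93% for bins U2 in KO-NT alone, 2.22% for WT-GS alone and 1.97% for WT-NT alone. In runs of at least 1 kb this came to 4139 KO-GS-only runs, against 4021 KO-NT-only, 9292 WT-GS-only and 8717 WT-NT-only runs. The number of KO-GS-only runs was thus 1.03 times that of the KO-NT-only runs, the mirror pattern in which U2 was present in untreated KO cells and U1 in the other 3, and 0.445 times that of the WT-GS-only runs, which are the U2 gains of starved wild-type cells with no counterpart in KO. By length, the 12.1 Mb of KO-GS-only runs stood against 14.2 Mb in KO-NT-only, 34.6 Mb in WT-GS-only and 30.4 Mb in WT-NT-only runs. A further 3614 runs with 11.5 Mb were U2 in both KO-GS and WT-GS and U1 in both NT segmentations. These classes share segmentations with one another, and their numbers are set side by side without a test.

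**Figure D1:**
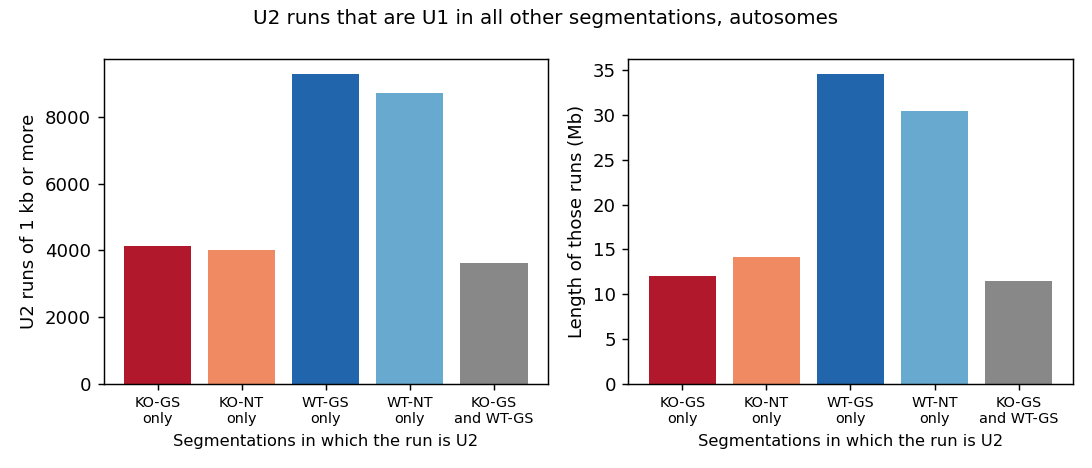
Number (left) and summed length in Mb (right) of autosomal U2 runs of at least 1 kb, by the segmentations in which the run is U2; it is U1 in all others. The KO-GS-only bar (4139 runs, 12.1 Mb) is close to the KO-NT-only bar (4021 runs, 14.2 Mb) and lower than both WT bars (9292 and 8717 runs).

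KO-GS-only runs were short. Their median length was 2200 bp, with quartiles of 1400 and 3600 bp and a maximum of 25400 bp. The median was 2800 bp for the KO-NT-only, the WT-GS-only and the WT-NT-only runs alike, and 2400 bp for the runs shared by KO-GS and WT-GS. At least 5 kb was reached by 550 KO-GS-only runs (13.3%), against 21.6% of KO-NT-only, 23.5% of WT-GS-only and 20.98% of WT-NT-only runs, and at least 10 kb by 61. At the length threshold of the rule, 360 runs were exactly 1000 bp long, and 354 runs of 800 bp fell just outside it. Without the threshold there were 6735 runs, of which 1063 were a single bin, and the runs of at least 1 kb held 91.9% of all bins with the pattern.

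The segmentations differed in how finely U2 was cut, and these values stand beside the numbers above. KO-GS had 73552 autosomal U2 segments with a median length of 2600 bp, KO-NT had 55387 with a median of 3400 bp, WT-GS had 78170 with a median of 2800 bp, and WT-NT had 81724 with a median of 2600 bp. KO-NT, the segmentation with the fewest U2 segments, is 1 of the 3 in which a KO-GS-only run must be U1. The part of this difference in the number and length of the runs was not tested.

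The most frequent setting of U2 that appeared between NT and GS in KO cells was sequence that wild-type cells carried as U2 under both treatments. Autosomal bins that were U2 in KO-GS and U1 in KO-NT amounted to 84.2 Mb. Of these, 50.2% were U2 in WT under both treatments, 14.7% were U2 in WT-GS and U1 in WT-NT, 12.8% were U1 in WT-GS and U2 in WT-NT, and 6.67% were U3 or U4 in at least 1 WT segmentation. The remaining 15.6%, or 13.1 Mb, were U1 in WT under both treatments and are the bins of the KO-GS-only pattern at any length. In WT the corresponding bins, U2 in WT-GS and U1 in WT-NT, amounted to 74.4 Mb. Of these 48.8% were U1 in KO under both treatments and 12.7% were U2 in KO under both. Bins that gained U2 in both genotypes were 14.7% of the KO gains and 16.7% of the WT gains. In the opposite direction, bins that were U1 in KO-GS and U2 in KO-NT amounted to 73.3 Mb, of which 20.4% were U1 in WT under both treatments and 44.2% were U2 in WT under both.

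**Figure D2:**
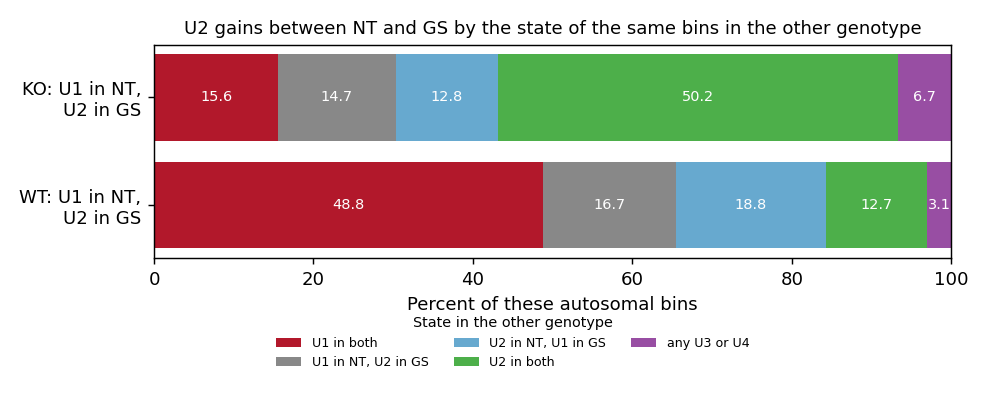
Autosomal bins that were U2 in GS but U1 in NT, for KO (upper bar) and WT (lower bar), divided by the state of the same bins in the other genotype, as percent of each bar. The KO-GS-only pattern is the first part of the KO bar, 15.6%, and the green part, U2 in the other genotype under both treatments, takes 50.2% of the KO bar and 12.7% of the WT bar.

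The KO-GS-only runs were spread over all 19 autosomes. Their density was 1.69 ± 0.235 runs per Mb (mean and SD over 19 chromosomes, a spread along the genome and not between cultures). It was lowest on chromosome 7, with 204 runs or 1.34 per Mb, and highest on chromosome 11, with 262 runs or 2.15 per Mb. Chromosomes 1 and 3 held the most runs, 317 each, at 1.61 and 1.99 per Mb. U2 as a whole covered 19.04% of chromosome 11 in KO-GS and 16.8% in KO-NT. The KO-GS share was 17.6% over all autosomes and highest on chromosome 13, at 24.2%. KO-GS-only runs were denser than KO-NT-only runs on 10 of 19 autosomes and less dense on 9, and less dense than WT-GS-only and than WT-NT-only runs on 19 of 19.

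Along the chromosomes the runs reached most windows of 1 Mb, but their sequence was spread unevenly. Of 2482 autosomal windows of 1 Mb, 1678 (67.6%) held part of a KO-GS-only run, and 359 windows (14.5%) held 50% of all run sequence. The median distance between neighbouring runs was 265 kb, while 736 runs (17.8%) had another within 10 kb. In the last 5 Mb of the autosomes the runs numbered 179, or 1.88 per Mb, against 1.70 per Mb in the main part of the chromosomes. KO-NT-only runs numbered 114 in the last 5 Mb, or 1.2 per Mb, against 1.65 per Mb in the main part, so the 2 KO classes differed in opposite directions there.

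The 10 windows with most run sequence held 3.41% of it. The window on chromosome 13 from 28000001 to 29000000 came first, with 12 run midpoints and 50.4 kb of KO-GS-only runs. The same window also held 91.8 kb of WT-GS-only runs and 64.6 kb of runs shared by KO-GS and WT-GS. Because the KO-GS-only runs are U2 in KO-GS by the rule, U2 in the windows is given for the sequence outside them. In this window it was 37.6% in KO-GS, 37.6% in KO-NT, 59.7% in WT-GS and 41.3% in WT-NT. Leaving out the KO-GS-only runs takes U2 from KO-GS alone, while the WT-GS-only runs stay in. With all runs kept the shares were 40.7, 35.7, 56.7 and 39.2%, so the equal KO values are partly set by what was left out. On chromosome 7 the window from 105000001 to 106000000 held 46.8 kb in 6 runs, with U2 outside them on 29.9% in KO-GS, 25.9% in KO-NT, 33.6% in WT-GS and 31.5% in WT-NT. The window on chromosome 12 from 86000001 to 87000000 also held 46.8 kb, in 8 runs, with U2 outside them on 30.7% in KO-GS, 24.99% in KO-NT, 28.3% in WT-GS and 26.96% in WT-NT.

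The other 7 windows held 35.0 to 43.4 kb of KO-GS-only runs. They began at 32000001 on chromosome 4, 44000001 on chromosome 17, 49000001 on chromosome 13, 61000001 on chromosomes 11 and 14, and 104000001 and 112000001 on chromosome 11. Outside the runs, the U2 share of KO-GS exceeded that of KO-NT in 9 of the 10 windows, that of WT-GS in 2 and that of WT-NT in 4. With the runs kept, which are U2 in KO-GS alone, it did so in 10, 7 and 8 of the 10. The windows were ranked by sequence that is U2 in KO-GS and U1 in the other segmentations, and KO-GS segments often go on past the runs. The counts are therefore partly set by the ranking and by whether the runs are left out. The same counts over all windows are not given. Chromosome 11 supplied 3 of the 10 windows.

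Runs rarely bordered on U2 that was already present in untreated KO cells. The bins directly beside a run were read in each segmentation. The rule sets these partly: runs are maximal, so where U2 of KO-GS goes on past a border, at least 1 of the other 3 segmentations must be in a state other than U1 there. It does not set which of the 3. U2 of KO-NT lay beside 489 of 4139 runs (11.8%, exact binomial 95% interval 10.8 to 12.8%, which covers counting error only and treats runs as independent). U2 of WT-GS lay beside 34.0% of runs and U2 of WT-NT beside 29.0%. The runs thus bordered more often on wild-type U2 of either treatment than on U2 of their own untreated genotype. Among WT-GS-only runs U2 of KO-GS lay beside 20.3%, U2 of KO-NT beside 23.0% and U2 of WT-NT, their own genotype, beside 32.0%. For KO-NT-only runs U2 of KO-GS lay beside 14.9%, U2 of WT-GS beside 36.7% and U2 of WT-NT beside 30.6%, values close to those of the KO-GS-only runs. In each of these classes U2 of WT was thus a more frequent neighbour than U2 of KO. WT segmentations hold more U2 overall than KO ones, and the part of that in these shares was not tested.

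At 61.8% of runs a U2 bin of at least 1 of the other 3 segmentations lay directly beside the run, and at 80.0% a bin in U2, U3 or U4 did. The median distance to the nearest U2 was 7.2 kb in KO-NT, 1.4 kb in WT-GS and 2.2 kb in WT-NT. More than 10 kb separated 503 runs (12.2%) from U2 of any of the 3, and more than 50 kb separated 106 (2.56%).

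The 4 states just outside the runs showed how the runs ended. At 3377 of 8278 borders (40.8%) the next bin was U1 in all 4 segmentations, so the run ended where U2 of KO-GS ended. At 1214 borders (14.7%) U2 of KO-GS went on together with U2 of WT-GS, and at 969 (11.7%) together with U2 of WT-NT. It went on together with U2 of KO-NT alone at 355 borders (4.29%). At 581 borders (7.02%) KO-GS passed from U2 to U4 while the other 3 stayed U1, and at 268 (3.24%) it passed to U3.

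Most runs were parts of longer U2 segments of KO-GS. At 2448 runs (59.1%) the run was the end of a longer U2 segment, at 618 (14.9%) it lay inside one, and 1073 runs (25.9%) were whole segments. These shares were 57.1, 16.3 and 26.6% for KO-NT-only runs within KO-NT, and 53.1, 18.6 and 28.3% for WT-GS-only runs within WT-GS. The 4139 runs sat in 3967 U2 segments, 5.39% of those of KO-GS, with a median length of 5000 bp. In 2604 of these segments (65.6%) no bin was U2 in KO-NT, and in 1488 (37.5%) no bin was U2 in any of the other 3 segmentations. Segments holding KO-NT-only runs had no U2 in KO-GS at 59.0% and none in any other segmentation at 33.4%. The corresponding shares, with the other treatment of WT, were 50.4 and 38.7% for WT-GS-only and 52.95 and 40.0% for WT-NT-only runs. Of the runs that were whole segments, 512 had U1 beside them on both sides in all 4 segmentations, and 44 of these lay more than 50 kb from any bin in U2, U3 or U4 of the other 3.

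**Figure D3:**
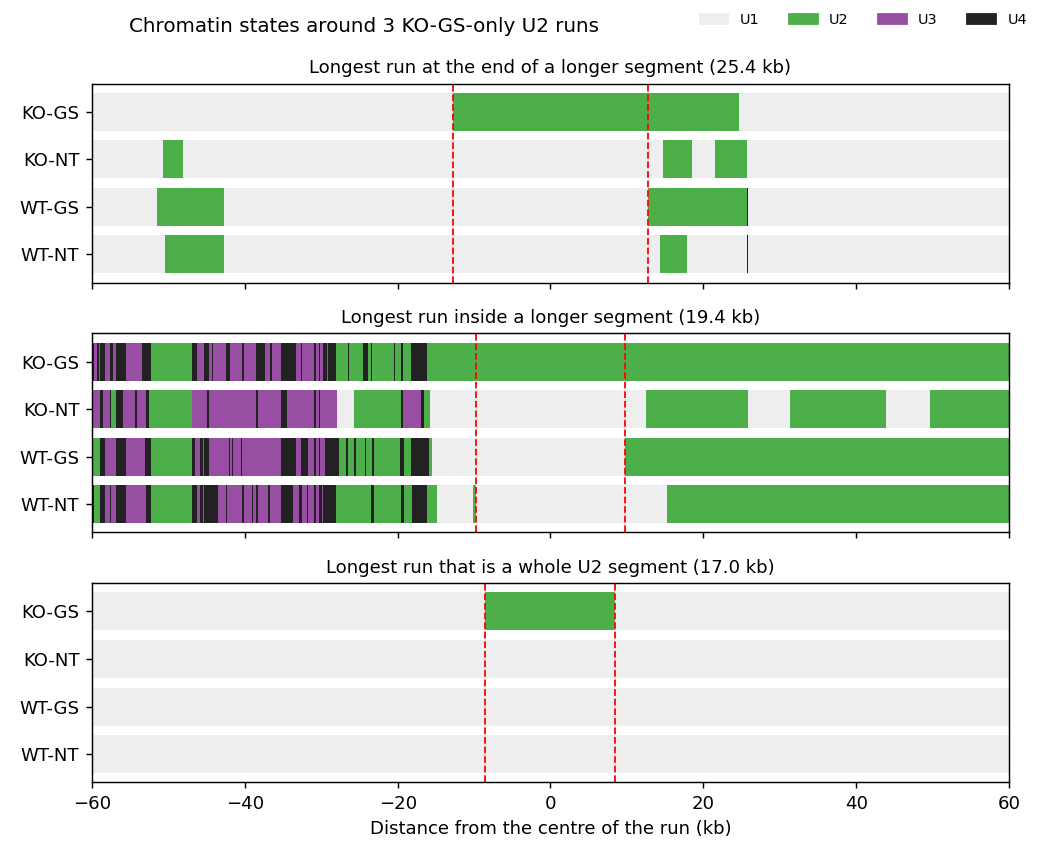
States in the 4 segmentations over 60 kb to either side of the centre of 3 runs, each the longest of its kind: 1 at the end of a longer KO-GS U2 segment (25.4 kb), 1 inside a longer segment (19.4 kb) and 1 that is a whole segment (17.0 kb). Dashed red lines mark the borders of the run, between which KO-GS is U2 and the other 3 are U1; the lower run has no U2 of the other 3 within the plotted range.

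The 10 longest runs show these forms. The longest lay on chromosome 18 from 50173001 to 50198400, 25.4 kb at the end of a U2 segment of 37.4 kb. It bordered on U2 of WT-GS, and the nearest U2 lay 2.0 kb away in KO-NT and 1.6 kb away in WT-NT. The run on chromosome 2 from 13446601 to 13467000, 20.4 kb, bordered on U2 in all 4 segmentations. On chromosome 7 the run from 105635401 to 105654800, 19.4 kb, lay inside a KO-GS segment of 99.6 kb with U2 on both sides. At one border lay a short piece of WT-NT U2, from -10.1 to -9.7 kb relative to the centre of that run, with U1 before it. At the other border U2 of WT-GS began and went on to at least 69.7 kb from the centre. KO-NT was U1 at both borders. The run on chromosome 4 from 129542801 to 129561800, 19000 bp, bordered on U2 of both WT segmentations, and U2 of KO-NT lay 9.0 kb away.

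The run on chromosome 3 from 122187601 to 122204600 stood alone. It was a whole U2 segment of 17.0 kb, the nearest U2 lay 65.6 kb away in KO-NT and 65.4 kb away in both WT-GS and WT-NT, and no bin within 50 kb on either side was U2 in any of these 3. The run on chromosome 15 from 84495201 to 84511200, 16.0 kb, was also a whole segment, with U3 on one side in KO-GS, WT-GS and WT-NT and U1 there in KO-NT.

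On chromosome 12 the run from 86156401 to 86172200, 15.8 kb, was the end of a segment of 58.8 kb, and on chromosome 14 the run from 61296201 to 61311800, 15.6 kb, the end of one of 54.4 kb. In the 50 kb on either side of the chromosome 14 run, outside all KO-GS-only runs, U2 covered 42.5% in KO-GS, 3.69% in KO-NT, 44.0% in WT-GS and 18.2% in WT-NT. Beside the chromosome 12 run it covered 34.6% in KO-GS, 14.0% in KO-NT, 33.2% in WT-GS and 12.8% in WT-NT. Outside the runs, both places had more U2 in GS than in NT in each genotype. KO-GS and WT-GS were close there, which is partly set by leaving out sequence that is U2 in KO-GS alone. With the runs kept, KO-GS and WT-GS stood at 59.5 and 31.0% on chromosome 14 and at 54.1 and 23.3% on chromosome 12. These flanks include the rest of the KO-GS segments to which the 2 runs belong. Others of the 10 longest runs differed in the sequence outside the runs. Beside the chromosome 2 run U2 covered 58.2% in KO-GS and 65.5% in KO-NT, but 65.95 and 53.3% with the runs kept. Beside the chromosome 15 run from 84495201 to 84511200 it covered 51.4% in WT-GS and 53.4% in WT-NT. The last of the 10 lay on chromosome 15 from 58883001 to 58898000, 15000 bp beside U2 of WT-GS, and on chromosome 4 from 107682401 to 107697200, 14.8 kb and a whole segment beside U4 of KO-GS and WT-GS. Of the 10, 1 bordered on U2 of KO-NT, 7 on U2 of WT-GS and 3 on U2 of WT-NT.

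Within 10 kb outward from the run borders, the U2 share declined in KO-GS and increased in the other 3 segmentations. Inside the runs the rule fixes all 4. States lie in segments, so close to the borders the rule also partly sets a high share in KO-GS and low shares in the other 3. In the bin next to the border 44.5% of sites were U2 in KO-GS, 6.11% in KO-NT, 18.2% in WT-GS and 15.2% in WT-NT. At 5 kb the shares were 28.0% in KO-GS, 16.8% in KO-NT, 27.5% in WT-GS and 25.6% in WT-NT. At 10 kb they were 25.9, 20.3, 30.3 and 28.7%, and at 50 kb 23.9, 21.9, 28.7 and 27.3%, in both cases above the autosomal shares of 17.6, 17.2, 20.9 and 20.8%. Directly beside the runs, KO-NT, WT-GS and WT-NT were below their autosomal shares. WT-GS-only runs had a similar outward course with WT-GS as the high segmentation, from 45.1% in the next bin to 30.1% at 50 kb. In their next bin KO-GS stood at 10.8% and KO-NT at 12.2%, both below WT-NT at 17.3%.

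**Figure D4:**
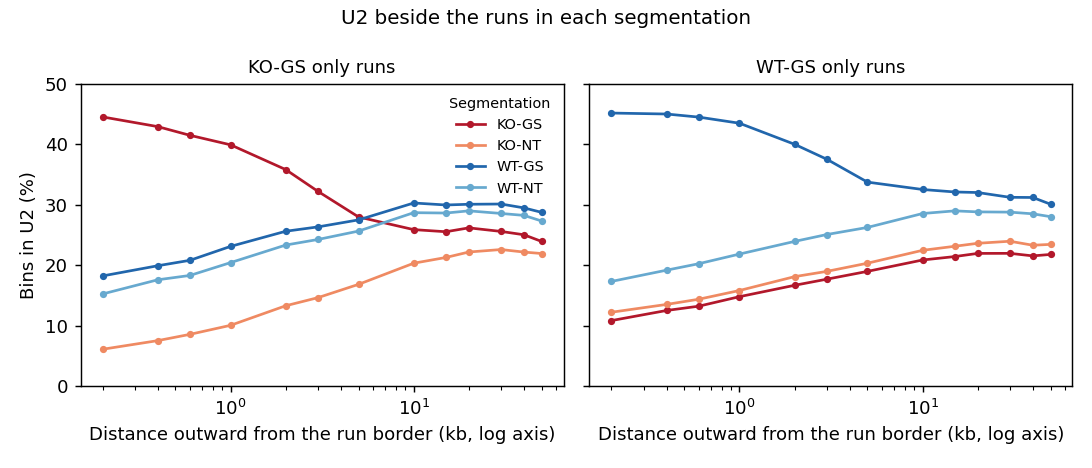
Percent of bins in U2 at distances of 0.2 to 50 kb outward from both borders of KO-GS-only runs (left) and WT-GS-only runs (right), 1 line per segmentation. Beside KO-GS-only runs KO-GS starts at 44.5% and KO-NT at 6.11%, below both WT lines; beside WT-GS-only runs WT-GS starts at 45.1%, and WT-NT is next at 17.3%.

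The share of U1 bins that were U2 in KO-GS depended on the distance to U2 of the other segmentations. Among bins U1 in KO-NT, WT-GS and WT-NT that lay directly beside U2 of any of these 3, 12.9% were U2 in KO-GS. The share was 9.33% at 0.4 to 1 kb, 4.04% at 1.2 to 5 kb, 0.868% from there to 20 kb, 0.179% from there to 50 kb and 0.0435% beyond 50 kb. Of all KO-GS-only bins 43.0% lay at 1.2 to 5 kb and 2.67% beyond 50 kb. Each of the other 3 single-segmentation classes declined with distance as well. For WT-GS alone the share was 27.5% directly beside U2 and 0.215% beyond 50 kb, so the KO-GS share was 0.470 of the WT-GS share next to U2 and 0.202 of it beyond 50 kb. Against KO-NT alone the KO-GS share was 1.02 times as high next to U2, where KO-NT stood at 12.7%, and 0.706 times as high beyond 50 kb, where KO-NT stood at 0.0616%.

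**Figure D5:**
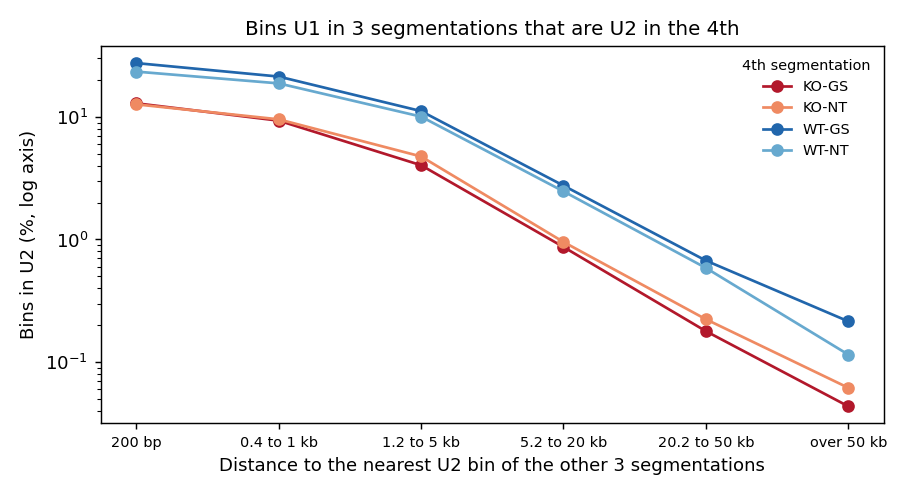
Percent of autosomal bins in U2 in 1 segmentation among bins that are U1 in the other 3 (log axis), by distance to the nearest U2 bin of those 3. All 4 lines fall with distance, the KO-GS line from 12.9% to 0.0435% and the WT-GS line from 27.5% to 0.215%, with the KO lines below the WT lines throughout.

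U4, the rarest state, lay beside part of the runs in KO-GS. A border with U4 of KO-GS was found at 737 runs (17.8%), while U4 of KO-NT lay beside 44 (1.06%), U4 of WT-GS beside 98 (2.37%) and U4 of WT-NT beside 120 (2.90%). Inside the runs KO-GS is U2 and the others are U1 by the rule, so these values are not like for like. The share of all KO-GS U2 segments that border on U4 is not given. In the other classes U4 of the segmentation that carried the U2 run lay beside 8.73% of KO-NT-only, 13.4% of WT-GS-only and 20.9% of WT-NT-only runs. These shares followed the order of autosomal U4 coverage, which was 1.85% in KO-GS, 1.01% in KO-NT, 1.71% in WT-GS and 2.12% in WT-NT. U3 or U4 of KO-GS together lay beside 25.5% of the KO-GS-only runs.

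Few runs had a SIRT7 peak, and the share was near that of other U1 sequence. The peaks come from WT cells, in which the runs are U1 by the rule, and SIRT7 was not precipitated from KO cells. Of the 4139 runs, 20 overlapped a SIRT7 peak of the GS list by at least 1 bp (0.483%, exact binomial 95% interval 0.295 to 0.745%) and 83 had one within 10 kb (2.01%, interval 1.60 to 2.48%). A GS peak overlapped 0.622% of KO-NT-only runs, 0.431% of WT-GS-only runs, 0.275% of WT-NT-only runs and 0.304% of runs shared by KO-GS and WT-GS. Within 10 kb lay a GS peak at 2.94% of KO-NT-only runs (interval 2.44 to 3.50%), 2.35% of WT-GS-only runs, 2.03% of WT-NT-only runs and 1.44% of runs shared by KO-GS and WT-GS. Measured from the middle bin of each run, 1.79% of KO-GS-only runs lay within 10 kb of a GS peak, against 2.21% of the bins that were U1 in all 4 segmentations and 1.96% of such bins within 10 kb of U2 of KO-NT, WT-GS or WT-NT. The middle bin itself lay in a GS peak at 9 KO-GS-only runs (0.217%), against 0.186% of the bins U1 in all 4 and 0.204% of those near U2. The share at the runs was thus below that of such sequence within 10 kb and slightly above it inside peaks, where it rests on 9 runs. Within 100 kb the numbers were 542 KO-GS-only runs (13.1%, interval 12.1 to 14.2%), 18.8% of KO-NT-only, 17.3% of WT-GS-only, 15.4% of WT-NT-only and 12.2% of shared runs. None of these differences was tested, and runs that lie close together share peaks.

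Seen from the peak list, 23 of 2272 autosomal GS peaks (1.01%) overlapped a KO-GS-only run. Such runs cover 0.488% of the segmented autosomes, a share that does not count the width of the peaks. Of the 58 autosomal NT peaks 1 overlapped a KO-GS-only run, and 4 such runs had an NT peak within 10 kb. The longest run with a GS peak was the one on chromosome 3 from 49372001 to 49380800, 8.8 kb, which held the whole peak from 49375638 to 49376493 with a score of 577, the authors' own value per peak. The run on the same chromosome from 155585201 to 155593400, 8.2 kb, held the peak from 155590772 to 155591535. Another on chromosome 3, from 7958201 to 7964200 and 6.0 kb long, lay inside a KO-GS U2 segment of 21.8 kb and held a peak with a score of 842. On chromosome 18 the run from 3610601 to 3617000, 6.4 kb, held a peak of 1196 bp, and on chromosome 8 the run from 110093001 to 110098600, 5.6 kb, covered 1119 bp of a peak of 1994 bp. U2 of at least 1 of KO-NT, WT-GS and WT-NT lay directly beside all 5. The 10 longest runs of all held none, and all 10 lay at least 330 kb from a GS peak.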

How the data were processed

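ChIP-seq libraries of H3K27me3 and mH2A1 (8 each), SIRT7 (4) and input (8) came from MEFs. Tools listed without a role in the submitters' processing notes are MACS 1.4.2 and Bowtie, SAMtools 0.1.19, deepTools 2.4.2, Trimmomatic 0.36 and FastQC 0.11.3, with the builds mm9 and hg19. The authors deposited 4 segmentations, per the labels 1 per genotype and treatment, each giving a state U1 to U4 to every 200 bp bin; the segmentation tool and its settings are not given, nor whether a state was defined alike in all 4. Chromosome ends equal those of mm9, and coordinates are mm9, counted from 1. The SIRT7 lists carry a score that the authors deposited per peak, used here to rank or filter peaks.

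Bins were read into arrays with Python 3.11.15 and numpy 2.4.6, runs were found per class, and distances counted the bases between a run and the nearest bin or peak. Exact binomial (Clopper-Pearson) intervals came from scipy 1.17.1. Run finding was tested on simulated data. Named regions were the 10 longest runs, the 10 windows of 1 Mb with most run sequence and the 5 runs nearest to a GS peak, longest first. The members and these rules were chosen with earlier results of these data known. Alternatives were another minimum length, joined runs, joined short segments and 1 kb bins. Genes, fibroblast markers and sequences of mm9 were not used here, since the annotation at hand is of another build, so no gene is named and the share of runs in gene bodies was not computed.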

Additional observations from a re-analysis of the deposited data

How the results depend on the processing

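The number and length of KO-GS-only runs stayed within 1.5 times of the reported values with a minimum of 600 bp, with runs joined across 1 bin, with segments under 1 kb joined to the one before, and with 1 kb bins. A minimum of 2 kb left 2508 runs, with 9.81 Mb. Their number relative to WT-GS-only runs was 0.466 with a minimum of 600 bp, 0.373 with 2 kb and 0.474 with 1 kb bins, below 1 in every setting tried. The share beside U2 of KO-NT was 12.9% with short segments joined, 18.6% with 1 kb bins and 20.5% when U2 in any of the 5 bins (1 kb) beside a run was counted, or 22.1% with up to 1 kb between run and U2. A GS SIRT7 peak overlapped 20 runs, lay within 100 kb of 542, and lay within 10 kb of 40 when the peaks with a score at or above the median were used, against 83 with all peaks within 10 kb. The planned share of runs in gene bodies was not run, for want of an annotation of the build. No paired analysis was possible because each segmentation pools both replicates. Read depth is unknown, so how much of the single-condition U2 is imprecision of a segmentation was not tested.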

Other observations

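On chromosome X, which the rule leaves out, the same pattern was more frequent than on the autosomes. KO-GS-only runs of at least 1 kb numbered 706 there, or 4.24 per Mb and 1952 kb in all, against 1.69 per Mb on average over the autosomes. KO-NT-only runs numbered 1169 on X (7.01 per Mb). WT-GS-only runs numbered 90 (0.540 per Mb) and WT-NT-only runs 39 (0.234 per Mb). U2 seen in a single segmentation was thus mostly a KO feature on X, while on the autosomes it was more frequent in both WT segmentations. The labels do not state the sex of the cells, so sex and genotype cannot be told apart on X.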
